A study of Homo sapiens with 6 samples.

Results

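The genes described are 10 enzymes and enzyme subunits of transsulfuration and of glutathione synthesis and breakdown, taken by symbol (CTH, CBS, MPST, CHAC1, CHAC2, GCLC, GCLM, GSS, GSR and GGCT) from the 58735 genes of a deposited RNA-sequencing table. All 10 were listed and all 10 reached the mean of 1 FPKM that was asked for testing. FPKM is fragments per kilobase of gene scaled by library size, so levels of different genes can be set side by side per length. The libraries came from SKM-1, an established human acute myeloid leukaemia line that the labels call a cancer cell, after 48 h with celastrol, a plant triterpenoid (3 libraries), or after 48 h with DMSO, the solvent control (3 libraries). The sources used here state no dose. No label names a separate culture for each library, so the spread behind every p-value may be a technical one.

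Transsulfuration carries sulfur of methionine into cysteine: cystathionine beta-synthase joins homocysteine to serine, and cystathionine gamma-lyase splits the product to release cysteine. Cysteine is then joined to glutamate by glutamate-cysteine ligase, the step that usually limits the pathway, and glycine is added by glutathione synthetase to give glutathione, the main thiol of the cell. Oxidised glutathione is reduced again by glutathione reductase, and inside cells glutathione is taken apart by the ChaC enzymes. Several of these genes are textbook targets of stress transcription factors: CHAC1 and CTH of ATF4, and GCLC and GCLM of NRF2.

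The files' totals and markers set the frame for these values. Recovered reads numbered 15231742 to 16231066 in the celastrol libraries and 13549187 to 15410904 in the DMSO libraries, and 100% of the values above 0 were whole reads within 0.001 of a read. Mitochondrial genes took 1.54 ± 0.271% of the reads in celastrol libraries, against 5.52 ± 0.113% in DMSO libraries (SD, n = 3 each). Beside the counts of called markers stand the shares over all 12685 tested genes, 14.2% called lower and 15.3% called higher (adjusted p under 0.05 in limma-trend). Lists with few tested markers give only coarse shares. Of 11 myeloid markers 5 were tested and 2 of these were called lower, with summed levels of 57.4 to 63.2 FPKM with celastrol and 72.2 to 80.0 FPKM with DMSO. The called genes were LYZ, at 17.6 ± 1.13 FPKM in celastrol libraries, against 38.0 ± 1.30 FPKM in DMSO libraries (SD, n = 3 each), and ITGAM. Without LYZ, taken out after its values were seen, the sums overlapped, at 39.9 to 44.4 FPKM in celastrol libraries, against 35.6 to 42.0 FPKM in DMSO libraries. PTPRC averaged 14.8 FPKM in celastrol libraries, against 12.7 FPKM in DMSO libraries, and SPI1 22.3 FPKM in celastrol libraries, against 17.9 FPKM in DMSO libraries; neither was called (adjusted p = 0.118 and 0.130 in limma-trend). MPO averaged 0.0229 FPKM with celastrol and 0.0136 FPKM with DMSO, and ELANE and CEBPA stayed under 1 FPKM on average in both groups. All 12 erythroid markers were tested and 9 were called lower, with sums of 521 to 574 FPKM with celastrol and 684 to 709 FPKM with DMSO. RHAG averaged 290 FPKM in celastrol libraries, against 261 FPKM in DMSO libraries, and was not called. GATA1 averaged 111 FPKM against 158 FPKM and KLF1 44.1 FPKM against 104 FPKM in the same order, both called lower. RHAG and GATA1 lay above every listed myeloid marker in every library. The myeloid name is that of the line and not a reading of these markers. Of 8 lymphoid markers 3 were tested and 2 were called higher, with sums of 15.6 to 16.1 FPKM with celastrol and 8.54 to 10.5 FPKM with DMSO, and MS4A1 was at 0. Of 8 epithelial and stromal markers 2 were tested and 1 was called lower, with sums of 21.2 to 23.0 FPKM with celastrol and 36.0 to 40.0 FPKM with DMSO, and KRT5 and KRT14 were at 0. The part of these differences in the results below was not tested. In bulk RNA, fewer cells of a type and less RNA per cell cannot be told apart.

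Among the 10 genes, 4 fell and 1 rose with celastrol at a Benjamini-Hochberg adjusted p under 0.05 in limma-trend. CHAC1 and CTH fell most, and MPST and GGCT fell by less. GCLM rose. The share of all 12685 tested genes that was called lower was 14.2%, and the share called higher was 15.3%. All 3 celastrol libraries lay below all 3 DMSO libraries for 5 of the 10 genes, which holds for 22.0% of all tested genes, and above them for 3 of the 10, which holds for 25.3%. The median log2 fold change was -0.18 over the 10 genes and 0.023 over all tested genes. By role, of the 4 synthesis and reduction genes 1 was called higher and 0 lower, of the 3 breakdown genes 2 were called lower and 0 higher, and of the 3 transsulfuration and sulfur transfer genes 2 were called lower and 0 higher.

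**Figure D1:**
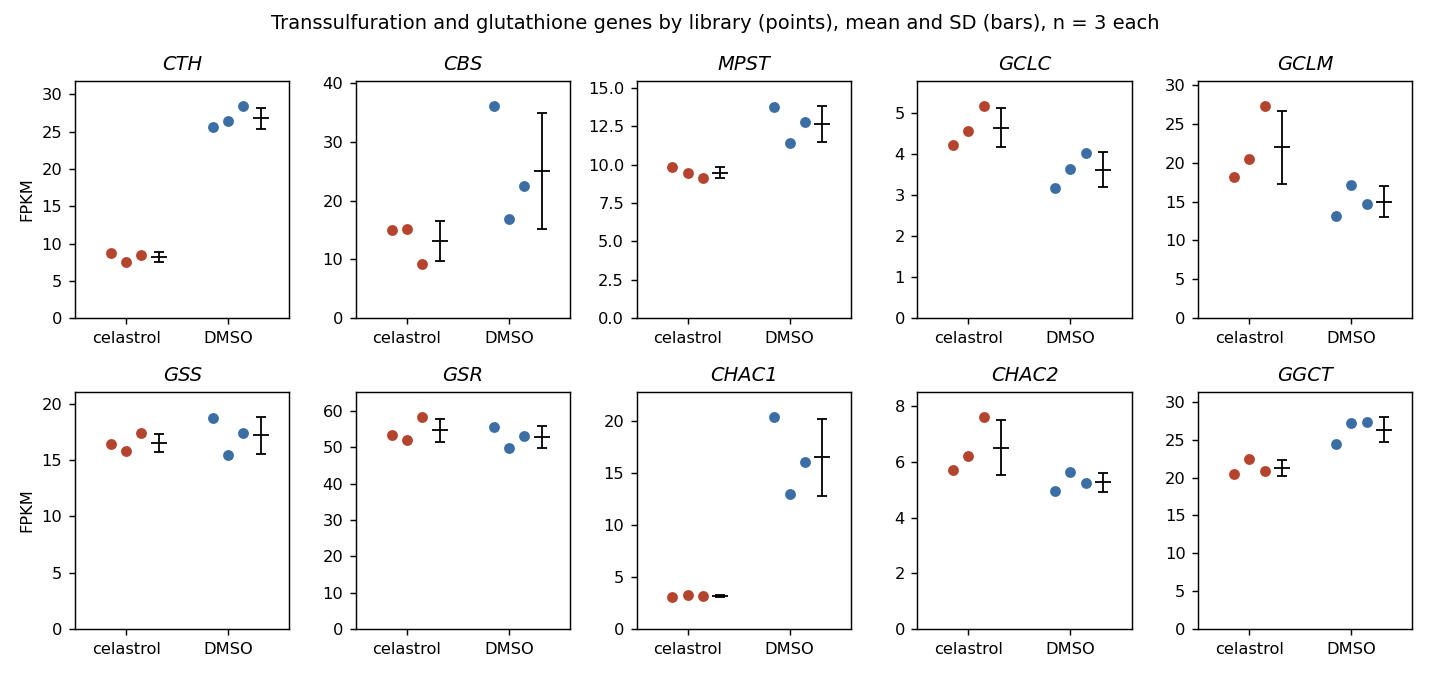
FPKM of the 10 genes in each celastrol and DMSO library (points; vertical axes in FPKM from 0), with mean and SD as bars, n = 3 each. CHAC1 lies at 3.05 to 3.25 FPKM with celastrol and at 13.0 to 20.4 FPKM with DMSO, while GSR and GSS overlap between the groups.

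Promoter sequence is shown for 3 called genes, from the RefSeq table (GRCh38.p14), since these genes moved in different directions and are textbook targets of ATF4 or NRF2. Windows of 6 of the 10 genes were searched, 9 in all. Each window runs from 250 bases before to 50 bases from the annotated start, 5′ to 3′ on the gene's strand. CHAC1 is chr15:40953221-40953520 on the plus strand, CTH is chr1:70411018-70411317 on the plus strand and GCLM is chr1:93909381-93909680 on the minus strand. Capitals mark matches to the motifs searched, on either strand, and positions count back from base -1, directly before the start.
CHAC1: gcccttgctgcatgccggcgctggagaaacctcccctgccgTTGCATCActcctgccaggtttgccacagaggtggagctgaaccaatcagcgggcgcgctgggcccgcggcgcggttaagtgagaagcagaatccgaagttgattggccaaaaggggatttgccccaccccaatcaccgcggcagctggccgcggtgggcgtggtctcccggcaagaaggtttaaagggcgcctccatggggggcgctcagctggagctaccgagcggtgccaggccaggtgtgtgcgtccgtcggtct
CTH: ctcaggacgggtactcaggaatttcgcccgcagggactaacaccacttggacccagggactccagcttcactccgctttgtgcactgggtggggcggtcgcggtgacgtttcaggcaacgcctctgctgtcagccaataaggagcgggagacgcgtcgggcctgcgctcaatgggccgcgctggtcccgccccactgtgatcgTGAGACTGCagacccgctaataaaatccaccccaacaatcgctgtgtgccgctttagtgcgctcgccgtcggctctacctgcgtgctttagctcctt
GCLM: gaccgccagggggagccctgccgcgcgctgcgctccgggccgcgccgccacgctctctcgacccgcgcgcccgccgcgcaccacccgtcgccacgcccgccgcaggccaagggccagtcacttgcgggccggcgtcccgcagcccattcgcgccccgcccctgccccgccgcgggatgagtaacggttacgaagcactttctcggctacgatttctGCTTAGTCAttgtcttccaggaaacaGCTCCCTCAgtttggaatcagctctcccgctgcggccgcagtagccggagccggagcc

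The motifs were TGATGNAA, the core of the element that ATF4 binds with C/EBP proteins, TGACNNNGC and TGAGNNNGC, forms of the antioxidant response element of NRF2, and TGACGTCA, the cyclic AMP response element. The CHAC1 window held TGATGNAA on the opposite strand, as TTGCATCA starting at base -209. It was the only one of the 9 windows with that motif, which 3.62% of 35116 promoter windows hold. The GCLM window held TGACNNNGC on the opposite strand, as GCTTAGTCA starting at base -34, and TGAGNNNGC on the opposite strand, as GCTCCCTCA starting at base -8. The CTH window held TGAGNNNGC as TGAGACTGC starting at base -47. The other match to TGACNNNGC was in 1 of the 3 windows of CBS, on the opposite strand starting at base -83. The windows of GCLC and CHAC2 held none of the motifs. TGACNNNGC is in 13.3% and TGAGNNNGC in 18.3% of all windows, and each was in 2 of the 9. TGACGTCA, in 1.85% of all windows, was in none of the 9. The starts used by RefSeq and by the deposited table differ: the CHAC1 gene of the table begins at 40952962, upstream of the whole window. A match describes the letters and not a bound site.

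Of the transsulfuration and sulfur transfer genes CTH and MPST fell, and CBS missed the threshold. CTH, cystathionine gamma-lyase (chromosome 1, 70411218 to 70439851, plus strand), had 8.77, 7.51 and 8.52 FPKM in celastrol libraries 1 to 3, against 25.7, 26.4 and 28.4 FPKM in DMSO libraries 1 to 3. The groups lay far apart, and each was narrow. CTH fell 3.24-fold between means, with a log2 fold change of -1.69 (SE 0.084, adjusted p = 6.50e-05), on 301 to 346 reads per celastrol library and 858 to 1019 per DMSO library. Its 95% interval ran from -1.88 to -1.49 on the log2 scale. The call held in all 17 alternatives, between -1.73 and -1.46.

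CBS, cystathionine beta-synthase (chromosome 21, 43053191 to 43076943, minus strand), did not pass the test. It had 14.98, 15.1 and 9.18 FPKM in celastrol libraries 1 to 3, against 36.0, 16.8 and 22.4 FPKM in DMSO libraries 1 to 3. Every celastrol library was below every DMSO library, but the highest celastrol and the lowest DMSO value lay close together and the DMSO libraries were widely spread. The log2 fold change was -0.90 (SE 0.29, adjusted p = 0.0519). Its 95% interval ran from -1.57 to -0.22.

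The genome build holds a second copy, CBSL (chromosome 21, 6444869 to 6468040), and reads of these copies cannot be told apart where their sequence is shared. Of the distinct stretches of 100 bases in annotated CBS transcripts, 50.3% also occur in CBSL transcripts, and 83.5% of those of CBSL occur in CBS. CBSL received 42, 44 and 153 reads in celastrol libraries 1 to 3, against 50, 117 and 46 reads in DMSO libraries 1 to 3. It took 12.7% of the reads of both copies in celastrol library 3 and 7.07% in DMSO library 2, which were the libraries with the lowest CBS value of their groups, and 1.40 to 2.55% in the other 4. With the reads of both copies joined, CBS had a log2 fold change of -0.86 and passed the test (adjusted p = 0.0400). Joining them left the spread between DMSO libraries in place, at 3566, 1655 and 2307 reads in DMSO libraries 1 to 3. CBS also passed without DMSO library 2 (adjusted p = 0.0245), and its adjusted p ranged from 0.00618 to 0.162 over 18 alternatives.

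**Figure D2:**
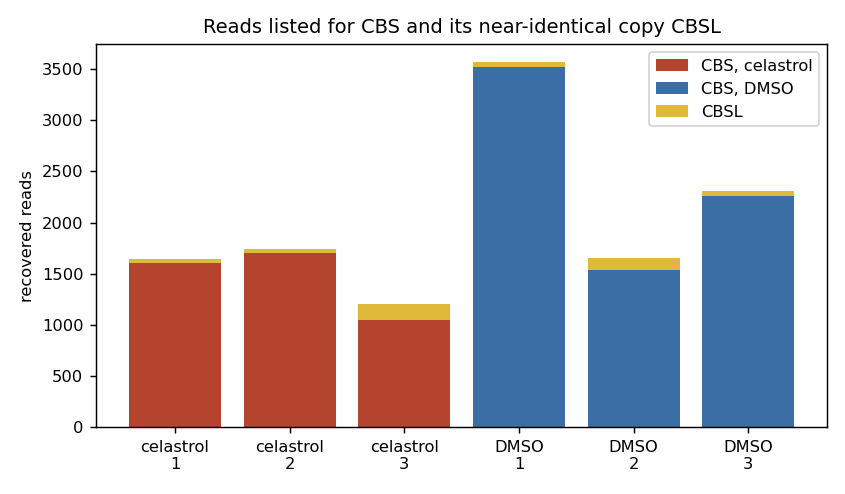
Reads recovered for CBS (lower part of each bar) and its near-identical copy CBSL (upper part) in the 3 celastrol and 3 DMSO libraries; the vertical axis counts reads. CBSL takes 12.7% of the joined reads in celastrol library 3 and 7.07% in DMSO library 2.

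MPST, mercaptopyruvate sulfurtransferase (chromosome 22, 37019635 to 37029822, plus strand), passes sulfur from mercaptopyruvate, a product of cysteine, to acceptors. It had 9.85, 9.43 and 9.13 FPKM in celastrol libraries 1 to 3, against 13.7, 11.4 and 12.7 FPKM in DMSO libraries 1 to 3, so the groups did not overlap. MPST fell 1.33-fold (log2 fold change -0.41, SE 0.086, adjusted p = 0.0115). The call was lost without DMSO library 3 (adjusted p = 0.0504) and after rescaling to TPM (0.126). The neighbouring sulfurtransferase gene TST, whose annotated span overlaps MPST by 549 bases on the other strand, averaged 12.4 ± 1.01 FPKM in celastrol libraries, against 12.9 ± 0.708 FPKM in DMSO libraries (SD, n = 3 each; adjusted p = 0.620).

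Of the synthesis and reduction genes GCLM rose, and GCLC, GSS and GSR did not pass the test. GCLM, the modifier subunit of glutamate-cysteine ligase (chromosome 1, 93885205 to 93909456, minus strand), had 18.2, 20.5 and 27.2 FPKM in celastrol libraries 1 to 3, against 13.2, 17.1 and 14.7 FPKM in DMSO libraries 1 to 3. The groups did not overlap, and celastrol library 3 stood above the other celastrol libraries. GCLM rose 1.47-fold (log2 fold change 0.54, SE 0.16, adjusted p = 0.0370). The call was lost without celastrol library 2 (adjusted p = 0.0728) or 3 (0.0791), without DMSO library 1 (0.0962) or 3 (0.101), and with no filter on low values (0.115). GCLC, the catalytic subunit (chromosome 6, 53497341 to 53616970, minus strand), had 4.21, 4.55 and 5.15 FPKM in celastrol libraries 1 to 3, against 3.17, 3.63 and 4.02 FPKM in DMSO libraries 1 to 3. Its groups also did not overlap. The log2 fold change of GCLC was 0.35 (SE 0.12), and it missed the threshold (adjusted p = 0.0596). GCLC passed in 6 of 16 alternatives, among them scaling to listed reads (adjusted p = 0.0252) and rescaling to TPM (0.00623), and lay between 0.27 and 0.60 in all 16. Those named scalings moved the median of all tested genes to 0.12 and 0.26, against 0.023 as deposited.

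The subunits of the ligase were set against each other within each library, which removes the effect of library scaling. The FPKM ratio of GCLC to GCLM was 0.231, 0.222 and 0.189 in celastrol libraries 1 to 3, against 0.240, 0.213 and 0.274 in DMSO libraries 1 to 3. The groups overlapped, and the difference of mean log2 ratios was -0.18 (two-sided exact permutation p = 0.4, adjusted over 3 ratios 0.4). GCLM had the higher level per length in every library of both groups.

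GSS, glutathione synthetase (chromosome 20, 34928433 to 34956027, minus strand), had 16.4, 15.8 and 17.4 FPKM in celastrol libraries 1 to 3, against 18.7, 15.5 and 17.4 FPKM in DMSO libraries 1 to 3. The groups overlapped throughout, and the log2 fold change was -0.054, with a 95% interval from -0.26 to 0.15 (adjusted p = 0.677). The sign of the GSS value turned under TPM (0.19) and when scaled to listed reads (0.0435). GSR, glutathione reductase (chromosome 8, 30678061 to 30727999, minus strand), was the most abundant of the 10 genes. It had 53.5, 52.1 and 58.3 FPKM in celastrol libraries 1 to 3, against 55.6, 49.7 and 53.2 FPKM in DMSO libraries 1 to 3. The log2 fold change of GSR was 0.048, with a 95% interval from -0.13 to 0.22 (adjusted p = 0.664). It passed as higher under TPM alone among 17 alternatives (0.29, adjusted p = 0.00771), a scaling that moved the median of all tested genes to 0.26, against 0.023 as deposited.

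Of the breakdown enzymes CHAC1 and GGCT fell, and CHAC2 did not pass the test. CHAC1 (chromosome 15, 40952962 to 40956519, plus strand) cleaves glutathione to 5-oxoproline and cysteinylglycine and is induced by ATF4. It had 3.05, 3.25 and 3.18 FPKM in celastrol libraries 1 to 3, against 20.4, 13.0 and 16.1 FPKM in DMSO libraries 1 to 3. The celastrol libraries were nearly alike and the DMSO libraries were spread, with no overlap. CHAC1 fell 5.23-fold (log2 fold change -2.33, SE 0.15, adjusted p = 0.000125), on 99 to 111 reads per celastrol library and 361 to 604 per DMSO library. The call held in all 17 alternatives, between -2.48 and -2.05.

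CHAC2 (chromosome 2, 53767792 to 53775196, plus strand) carries out the same cleavage and is the less active of the pair in published enzyme assays. It had 5.71, 6.20 and 7.61 FPKM in celastrol libraries 1 to 3, against 4.94, 5.62 and 5.24 FPKM in DMSO libraries 1 to 3. The groups did not overlap but nearly met, on 119 to 169 reads per celastrol library and 94 to 103 per DMSO library. The log2 fold change was 0.29 (SE 0.12), which missed the threshold (adjusted p = 0.0998) and passed when scaled to listed reads (0.0415) or rescaled to TPM (0.00825). Those scalings also moved the median of all tested genes up, to 0.12 and 0.26, against 0.023 as deposited. CHAC2 lies within the span of ASB3 on the other strand, and ASB3 had 13 to 30 reads per library.

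The ChaC genes stood in opposite order in the libraries of each treatment. The FPKM ratio of CHAC1 to CHAC2 was 0.534, 0.524 and 0.418 in celastrol libraries 1 to 3, against 4.12, 2.32 and 3.07 in DMSO libraries 1 to 3. CHAC2 was thus the higher of the pair per length in every celastrol library and CHAC1 in every DMSO library. The difference of mean log2 ratios was -2.66 (two-sided p = 0.1 by exact permutation, which no comparison of 3 with 3 can go below; adjusted over 3 ratios 0.3), and it lay between -2.86 and -2.45 when single libraries were left out. The ratio of CTH to CBS was 0.585, 0.497 and 0.928 in celastrol libraries 1 to 3, against 0.713, 1.57 and 1.27 in DMSO libraries 1 to 3. Those groups overlapped, and the difference was -0.80 on the log2 scale (two-sided exact permutation p = 0.2, adjusted over 3 ratios 0.3).

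**Figure D3:**
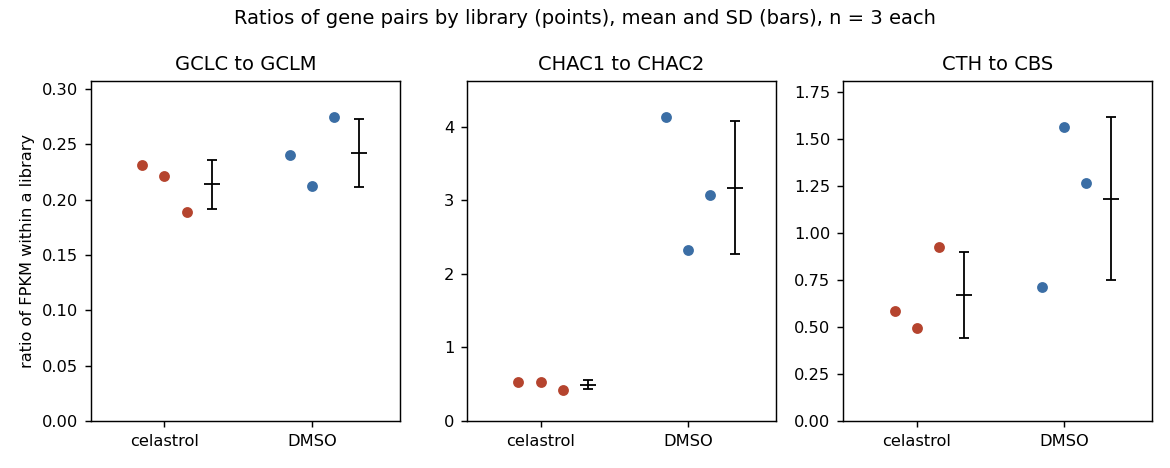
Ratios of FPKM within each celastrol and DMSO library (points) for GCLC to GCLM, CHAC1 to CHAC2 and CTH to CBS, with mean and SD as bars, n = 3 each; vertical axes start at 0. CHAC1 to CHAC2 is 0.418 to 0.534 with celastrol and 2.32 to 4.12 with DMSO, and the other ratios overlap between the groups.

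GGCT, gamma-glutamylcyclotransferase (chromosome 7, 30496621 to 30504844, minus strand), releases 5-oxoproline from gamma-glutamyl dipeptides. It had 20.5, 22.5 and 20.9 FPKM in celastrol libraries 1 to 3, against 24.4, 27.2 and 27.4 FPKM in DMSO libraries 1 to 3, with no overlap. GGCT fell 1.24-fold (log2 fold change -0.30, SE 0.076, adjusted p = 0.0217). The call was lost without celastrol library 1 (adjusted p = 0.0744) or 3 (0.0638) or DMSO library 3 (0.0942), when scaled to listed reads (0.0835), with limma-voom (0.0985) and under TPM (0.572), where the value was -0.064. Of its 100-base stretches 17.2% are shared with an annotated overlapping gene on the same strand, AC005154.5, which has 0 reads in all 6 libraries. How reads on both genes were counted is not stated, so the 0 does not show that GGCT lost no reads to the overlap.

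**Figure D4:**
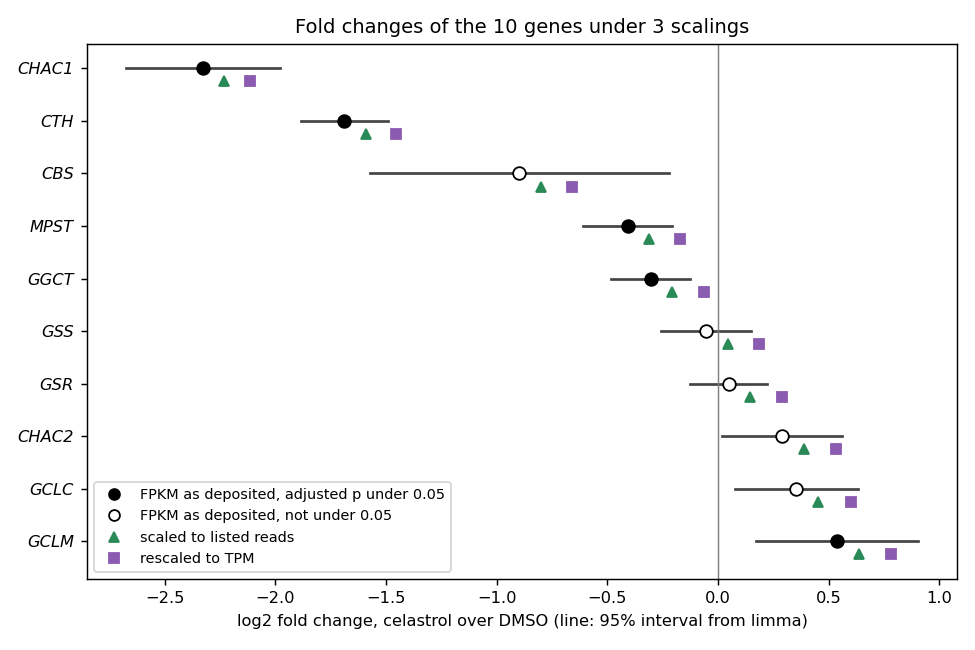
Log2 fold changes of the 10 genes, celastrol over DMSO (circles, with 95% intervals from limma as lines; filled where the adjusted p was under 0.05), and the same values scaled to listed reads (triangles) or rescaled to TPM (squares). Both rescalings move every gene to the right; CHAC1 at -2.33 and CTH at -1.69 stay far below 0, and GSS is at -0.054 as deposited and at 0.19 under TPM.

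Celastrol library 3 had the highest celastrol value of GCLM, GCLC, GSS, GSR and CHAC2 and the lowest of CBS and MPST. Between libraries of 1 group, the coefficient of variation was smallest for CHAC1 with celastrol (3.21%) and largest for CBS with DMSO (39.3%). Without celastrol library 3, GCLM was at 0.37, GCLC at 0.28 and CHAC2 at 0.17 on the log2 scale, all still above 0 and none called.

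Genes around the pathway were taken from 7 lists with 64 genes, of which 49 were tested, 4 were called higher and 19 lower. The background shares are those of all tested genes, 15.3% higher and 14.2% lower. The median log2 fold change over the 49 was -0.073, against 0.023 over all tested genes. In the methionine cycle, which supplies homocysteine, 8 of 11 genes were tested, 2 were lower and 0 higher. AHCY, which releases homocysteine from S-adenosylhomocysteine, averaged 59.0 ± 2.31 FPKM in celastrol libraries, against 94.7 ± 5.19 FPKM in DMSO libraries (SD, n = 3 each; log2 fold change -0.68, adjusted p = 0.000678). MAT2A, which makes S-adenosylmethionine, was 1.37-fold lower (adjusted p = 0.00424), a call lost under TPM (0.0615).

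Transporters that bring in cystine and cysteine or its partners moved both ways, with 5 of 8 tested, 2 higher and 3 lower. SLC7A11, the cystine importer, had 4.40, 5.14 and 6.47 FPKM in celastrol libraries 1 to 3, against 10.5, 13.6 and 10.5 FPKM in DMSO libraries 1 to 3. It fell with a log2 fold change of -1.10 (SE 0.16, adjusted p = 0.00266). SLC3A2, the chain it pairs with, had 96.2, 122 and 196 FPKM in celastrol libraries 1 to 3, against 87.2, 70.5 and 81.4 FPKM in DMSO libraries 1 to 3. SLC3A2 was called higher (log2 fold change 0.73, adjusted p = 0.0496), a call held without celastrol library 1 alone among the left-out libraries (highest adjusted p = 0.120) and lost with no filter (0.158). The neutral amino acid transporter SLC1A4 was 1.92-fold lower (adjusted p = 0.000466). CTNS, which exports cystine from lysosomes, was higher by 0.55 (adjusted p = 0.0175), a call lost without DMSO library 3 (0.0605) and with no filter (0.0602).

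Of the genes listed around cysteine and sulfide oxidation, 6 of 9 were tested, 3 were lower and 0 higher. None of the lower genes is itself an oxidising enzyme of cysteine or sulfide. The tested enzymes of sulfide and sulfite oxidation, ETHE1 and SUOX, were not called (log2 fold change -0.082 and 0.13, adjusted p = 0.575 and 0.288 in limma-trend). GOT1, the cytosolic aspartate aminotransferase, was 1.66-fold lower, CSAD, which leads cysteine sulfinate towards taurine, 1.59-fold lower, and mitochondrial GOT2 1.25-fold lower (adjusted p = 0.000554, 0.00370 and 0.00825), and GOT2 lost its call under TPM (0.309). CDO1, the first enzyme of cysteine oxidation, and SQOR, of sulfide oxidation, averaged under 1 FPKM in both groups.

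Among 9 regulators 7 were called lower and 0 higher. ATF4 mRNA had 104, 108 and 123 FPKM in celastrol libraries 1 to 3, against 291, 270 and 294 FPKM in DMSO libraries 1 to 3 (log2 fold change -1.36, SE 0.082, adjusted p = 9.86e-05). DDIT3, which encodes CHOP, had 13.4, 15.2 and 24.6 FPKM in celastrol libraries 1 to 3, against 61.3, 57.5 and 59.9 FPKM in DMSO libraries 1 to 3 (log2 fold change -1.79, adjusted p = 0.000944). TRIB3, a pseudokinase induced by CHOP, was 2.57-fold lower (adjusted p = 0.000222). CEBPB, a partner of ATF4, was 1.45-fold lower (adjusted p = 0.0267) and lost that call in 7 of 17 alternatives (highest adjusted p = 0.0952). NFE2L2, the gene of NRF2, had 15.1, 13.3 and 14.5 FPKM in celastrol libraries 1 to 3, against 17.2, 21.9 and 19.5 FPKM in DMSO libraries 1 to 3. It was lower by mRNA level (log2 fold change -0.44, adjusted p = 0.0166), a call lost without celastrol library 2 (0.0657) or DMSO library 3 (0.0598) and under TPM (0.166). KEAP1, which marks NRF2 for degradation, averaged 37.8 ± 3.19 FPKM in celastrol libraries, against 36.3 ± 3.803 FPKM in DMSO libraries (SD, n = 3 each; log2 fold change 0.061, adjusted p = 0.679), and it was called higher under TPM (0.30, adjusted p = 0.0203).

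**Figure D5:**
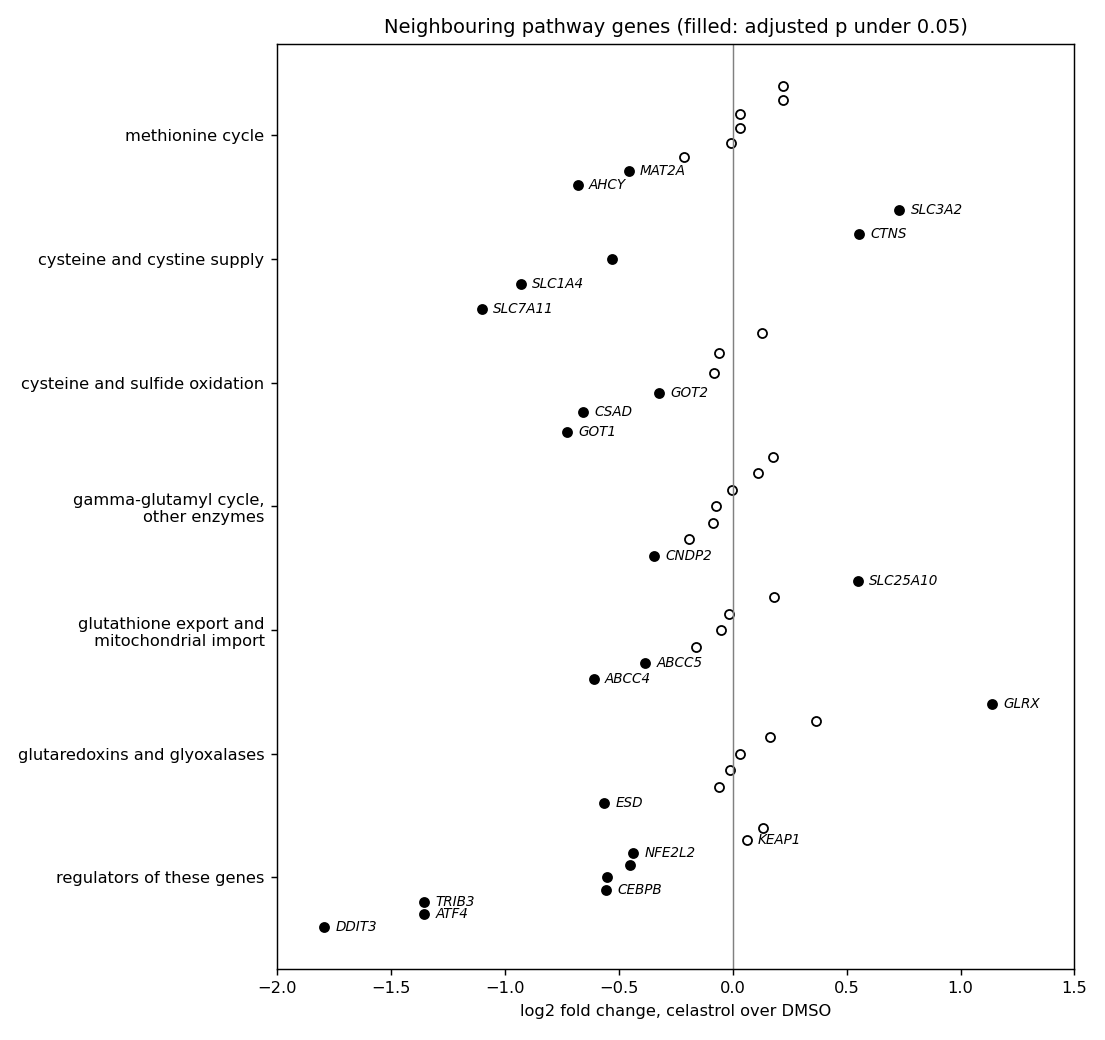
Log2 fold changes, celastrol over DMSO, of the 49 tested genes around the pathway, by list (filled points: adjusted p under 0.05). Labels mark the genes picked by the naming rule given with the processing. DDIT3 lies lowest at -1.79 and GLRX highest at 1.14.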

How the data were processed

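RNA of 3 celastrol and 3 DMSO libraries of SKM-1 cells was sequenced; groups and replicate numbers were taken from sample titles and treatment labels (the free-text treatment field reads celastrol for all 6). The authors deposited FPKM per gene. The submitters' processing notes name featureCounts (1.5.0-p3), HISAT2 (2.0.5) and the build GRCh38, while the sources used here state neither strand, multi-mapping settings nor the scaling total. The scaling total came to 1.04 to 1.05 times the listed reads for celastrol and 0.963 to 0.994 times for DMSO, so scaling to listed reads was among the alternatives. Levels were compared as log2(FPKM + 0.1), which understates changes of low genes, over genes with a mean of at least 1 FPKM. The test was limma-trend (limma 3.58.1, R 4.3.3), two-sided, with Benjamini-Hochberg adjustment over all 12685 genes and a threshold of 0.05. The steps were also run on simulated counts, with the same small spread for every gene and scaling to listed reads. That run does not cover spreads as wide as that of CBS, or a scaling that differs by treatment. Plain folds compare mean FPKM. Ratios of gene pairs were compared by exact permutation. Every one of the 10 genes is named. Of each surrounding list, up to 4 called genes by size are named, with SLC7A11, SLC3A2, ATF4, DDIT3, NFE2L2 and KEAP1 whatever their result. Some uncalled or untested genes of these lists are named beside them. Members and lists were chosen with earlier results of these data known. No library repeats another: log2 values correlated across genes, which are no independent replicates, at 0.959 to 0.967 inside a group.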

Additional observations from a re-analysis of the deposited data

How the results depend on the processing

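Alternatives were other pseudocounts, filters, scalings, protein-coding genes alone, limma-voom on recovered reads, a replicate block, and leaving out each library. CHAC1 and CTH were called lower in all of them. The number of the 10 genes called higher was 1 as reported, 0 with no filter on low values, 4 after rescaling to TPM, 3 on listed reads, and 2 each for nuclear reads, protein-coding genes, limma-voom and the replicate block; leaving out single libraries gave 0 to 1. The number called lower was 4, fell to 2 under TPM, and was 2 to 5 without single libraries. Over all tested genes, higher calls numbered 1947, against 5266 under TPM, 3024 scaled to listed reads, 3650 with limma-voom and 1125 to 1937 without single libraries. Lower calls numbered 1797, against 813 under TPM and 987 to 1767 without single libraries, lowest without DMSO replicate 3. The cause of these changes was not tested.

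The sign turned for GSS under TPM (0.19), scaled to listed reads (0.0435), with limma-voom (0.0430) and without DMSO replicate 1 (-0.128 to 0.00897 over the left-out libraries); for CBSL, at -0.16, under TPM (0.0606) and without celastrol replicate 1 or 2 or DMSO replicate 2 (-0.703 to 0.278 over the left-out libraries); and for KEAP1 without DMSO replicate 2 (-0.0240 to 0.126 over the left-out libraries). None of these was called. The ratio of GCLC to GCLM differed by -0.27 to -0.09 and that of CTH to CBS by -1.12 to -0.56 on the log2 scale without single libraries. Same-numbered libraries showed no shared deviation (correlations of -0.0156, -0.0326 and 0.0339 across genes). No pairing was seen, but so few pairs cannot exclude one. The replicate block gave 2 of the 10 genes higher and 5 lower. Among the 10 genes, CHAC1 and CHAC2 had the fewest reads in a library, 99 and 94; CBSL had 42 to 153.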

Other observations

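Of 7 tested glutaredoxin and glyoxalase genes 1 was higher, 1 lower and 5 not called. GLRX, the cytosolic glutaredoxin that uses glutathione to reduce protein disulfides, had 1.73, 2.65 and 4.45 FPKM in celastrol libraries 1 to 3, against 1.33, 1.26 and 1.00 FPKM in DMSO libraries 1 to 3. The celastrol libraries were all higher and differed widely among themselves (log2 fold change 1.14, SE 0.31, adjusted p = 0.0303 in limma-trend). Without a filter for low values that call was lost (adjusted p = 0.0985), as it was in 5 of the 6 fits that left out a library, all but that without celastrol replicate 1. ESD, an esterase that frees glutathione from its formaldehyde adduct, was 1.49-fold lower (adjusted p = 0.00281).

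Of 7 tested genes listed for glutathione export or mitochondrial import, 1 was higher, 2 lower and 4 not called. Those not called were ABCC1, SLC25A39, SLC25A40 and SLC25A11, with log2 fold changes of -0.014, -0.051, -0.16 and 0.18. The exporters ABCC4 and ABCC5 were 1.53-fold and 1.31-fold lower (adjusted p = 0.00205 and 0.0104), and ABCC5 lost its call under TPM (0.164). The mitochondrial carrier SLC25A10 had 11.4, 8.78 and 8.98 FPKM in celastrol libraries 1 to 3, against 6.97, 5.89 and 6.88 FPKM in DMSO libraries 1 to 3 (log2 fold change 0.55, adjusted p = 0.0129). Of 7 tested other enzymes of the gamma-glutamyl cycle 1 was lower and 0 higher: CNDP2, a dipeptidase that splits cysteinylglycine, was 1.28-fold lower (adjusted p = 0.0266), a call lost in 7 of 17 alternatives (highest adjusted p = 0.314).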
